A study of Mus musculus with 24 samples.

Results

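Histone marks were examined at 10 mouse genes by which red cell precursors take up, use, store and export iron, or signal their need for it, out of 21887 protein-coding genes: Tfrc, Tfr2, Slc25a37, Slc11a2, Steap3, Fth1, Slc40a1, Abcb10, Hmox1 and Erfe. They were named by function, but with earlier results of these data already known. Every deposited peak that touched a gene's body or the 5 kb beyond either annotated end was taken. This gave 28 of 28902 H3K27ac peaks without doxycycline and 23 of 23341 with it, and 47 of 119362 and 44 of 101388 H3K4me1 peaks. The measurements come from ChIP-seq of TgSpi1 erythroleukaemic cells (#763) from bone marrow, grown with EPO, which overexpress SPI1 (PU.1), an ETS factor of myeloid and B cells. Both groups carry a doxycycline-inducible shRNA against Spi1; the treated group received doxycycline for 48 h and the untreated group none. A single cell line, number 763, was used, and no sample is labelled as doxycycline without the hairpin, so lower SPI1 cannot be told apart from the drug or the hairpin. For each mark and condition there is 1 peak list, made from replicates 1 and 2 together for H3K27ac and from replicate 1 for H3K4me1. No difference below therefore has a replicate check or a test, and read depth is unknown.

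Iron enters a red cell precursor as transferrin bound to the transferrin receptor, is released in the endosome, reduced, carried into the cytosol and passed to mitochondria, where haem is made. Ferritin stores what is not used, ferroportin exports it, and heme oxygenase frees iron from haem. Erythroferrone, which precursors secrete in response to erythropoietin, lowers hepcidin in the liver and so makes more iron available to the marrow. H3K27ac is found at active promoters and enhancers, and H3K4me1 at enhancers whether or not they are active.

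As a check of the labelled erythroid identity, 8 erythroid marker genes were examined over the same windows. H3K27ac was present at 6 of the 8 in the untreated list and at all 8 in the treated list, where Hba-a1 and Slc4a1 were added. It was longer in the treated list at 6 of the 8 (46.7% of all genes with H3K27ac), and H3K4me1 at all 8 (60.7% of all genes with H3K4me1). H3K27ac was shorter at Gata1, with 12012 bp untreated and 10315 bp treated, and at Klf1, with 7402 bp and 7349 bp. Of 15 markers of myeloid, T, B, endothelial and stromal cells, 4 had H3K27ac in each list (Spi1, Csf1r, Cd3e and Cd79a), and the 4 endothelial and stromal markers had none. H3K27ac was longer in the treated list at Cd3e, with 367 bp untreated and 1017 bp treated, and shorter at the other 3. Over all genes with H3K27ac, 46.7% were longer and 50.5% shorter. H3K4me1 was shorter in the treated list at 11 of the 15 and longer at 2, where 38.7% of all genes with this mark were shorter and 60.7% longer. The part of these shifts in the results on iron genes was not tested. The level of SPI1 itself was not measured in the lists used. The treated H3K27ac peaks were fewer and wider than the untreated ones over the whole genome (median widths 1353 bp and 1003 bp), at nearly the same total covered length of 41.2 Mb and 41.5 Mb. H3K4me1 covered 195.4 Mb with and 184 Mb without doxycycline, so some added H3K4me1 length is common to the whole list.

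The sequences upstream of 4 annotated starts are given here because their acetylation is among the results: Erfe and Tfrc, which were acetylated in both lists, Steap3, in the treated list alone, and Fth1, where 1 of its 2 annotated starts was acetylated in the untreated list alone. They are from RefSeq (GRCm38.p6, the assembly that mm10 names), run 5′ to 3′ on the gene's strand, and stop at the edge of the annotated gene. The start used for Erfe lies inside the annotated gene, so its stretch ends short of that start. Its start window, 250 bases before and 50 after the start, ran from 91366180 to 91366479. Capitals mark, on either strand, matches to the GATA motif (AGATAA and its forms with other outer letters, namely TGATAA, then the form AGATAG, and last the form TGATAG). They also mark GAGGAA, which holds the core bound by SPI1, and CACCC, the core bound by Kruppel-like factors.
Erfe (chr1:91366180-91366304, plus strand): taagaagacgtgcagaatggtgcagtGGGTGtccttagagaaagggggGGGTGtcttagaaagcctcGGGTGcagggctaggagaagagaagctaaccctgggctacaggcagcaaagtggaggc
Steap3 (chr1:120271082-120271330, minus strand): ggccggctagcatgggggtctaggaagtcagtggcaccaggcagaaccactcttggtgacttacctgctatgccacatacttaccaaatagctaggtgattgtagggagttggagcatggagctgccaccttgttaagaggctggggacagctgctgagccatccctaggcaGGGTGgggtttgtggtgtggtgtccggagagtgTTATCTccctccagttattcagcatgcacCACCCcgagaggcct
Fth1 (chr19:9980350-9980599, plus strand): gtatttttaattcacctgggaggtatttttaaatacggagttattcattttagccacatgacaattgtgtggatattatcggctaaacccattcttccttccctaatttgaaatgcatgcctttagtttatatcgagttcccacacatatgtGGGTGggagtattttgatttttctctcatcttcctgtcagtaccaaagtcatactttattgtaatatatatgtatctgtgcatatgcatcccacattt
Tfrc (chr16:32608646-32608895, plus strand): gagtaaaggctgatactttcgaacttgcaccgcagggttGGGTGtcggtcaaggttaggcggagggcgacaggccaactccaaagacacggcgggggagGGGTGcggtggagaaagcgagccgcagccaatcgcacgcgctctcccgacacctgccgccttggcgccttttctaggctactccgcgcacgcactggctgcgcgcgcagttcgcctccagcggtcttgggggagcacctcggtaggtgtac
The table held 13 starts for 6 of the 10 genes, and the 250 bases before each were searched. Steap3, Tfr2, Tfrc and Fth1 had more than 1 start each, so the counts below are not counts of genes. The bases searched for the 2 Tfrc starts overlap. CACCC was found at 11 of the 13, against 52.0% of all 32851 starts. A GATA motif was found at 2 (26.5% of all starts) and GAGGAA at 3 (23.3%). The spaced palindrome TTCNNNGAA, bound by STAT factors, was at none of the 13 and at 7.02% of all starts. In the stretches printed, the only GATA match is in Steap3 (TTATCT, the reverse complement of AGATAA), and Erfe has 3 CACCC matches, all on the opposite strand. A match describes letters only.

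Across the 10 genes, H3K27ac covered more sequence in the treated list at 9, less at none, and was absent from both lists at Slc25a37. Of all 12314 genes with H3K27ac in either list, 46.7% were longer and 50.5% shorter in the treated list. The median difference of the 10 was 901.5 bp, beside -7 bp over those 12314 genes. H3K4me1 was longer at 9 of the 10 and shorter at Tfr2, where 60.7% of all 16363 genes with this mark were longer and 38.7% shorter. The median difference was 3574 bp, beside 391 bp over all of them. The 10 genes already carried more of both marks without doxycycline. Their untreated medians were 4656 bp of H3K27ac and 9918 bp of H3K4me1, beside 806 bp and 4459 bp over all 21887 genes, those without a peak included. The part of this starting length in the differences was not tested. With treated lengths scaled to the untreated total, the H3K4me1 median of the 10 was 2046 bp, beside -15.2 bp over all genes with the mark. The same number of the 10, 9, was longer, where 49.6% of all genes with the mark were longer and 50.4% shorter. Within 5 kb either side of each end alone, the H3K4me1 median was 1050 bp, beside 347 bp over all genes with the mark there. In these windows 8 of the 10 were longer (62.9% of all genes with the mark there). A gene was called longer or shorter when its covered length differed by at least 1.5-fold and at least 500 bp. By this rule Erfe, Slc11a2 and Steap3 were longer in H3K27ac (10.1% of all genes with the mark) and none of the 10 was shorter (11.0%). In H3K4me1, Erfe and Slc25a37 were longer (10.5% of all genes with the mark), and again none was shorter (6.78%). With scaled lengths the same genes were called longer in both marks, where 8.31% of all genes with H3K4me1 were called longer in that mark. Steap3 and Slc11a2 lay just inside the limit, with ratios of 1.504 and 1.523, and Abcb10 just outside it, with 1.452.

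**Figure D1:**
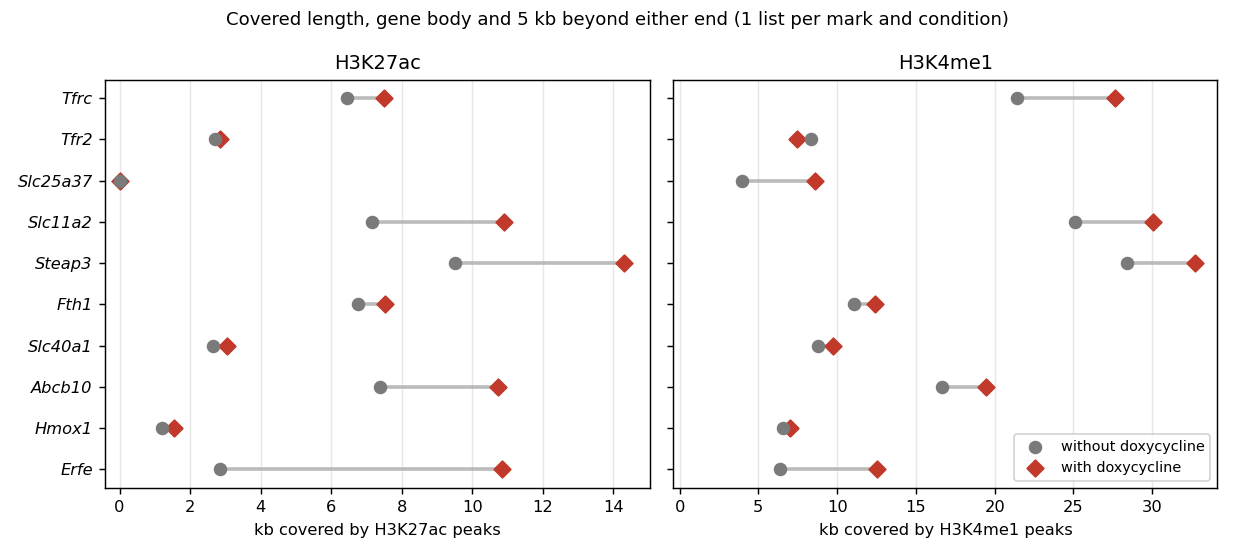
Length covered by H3K27ac peaks (left) and H3K4me1 peaks (right), in kb, in each gene's body and the 5 kb beyond either end, without doxycycline (grey circles) and with it (red diamonds), 1 list each and no error. The widest gap in H3K27ac is at Erfe, from 2859 bp to 10859 bp, and Slc25a37 stands at 0 in both.

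**Figure D2:**
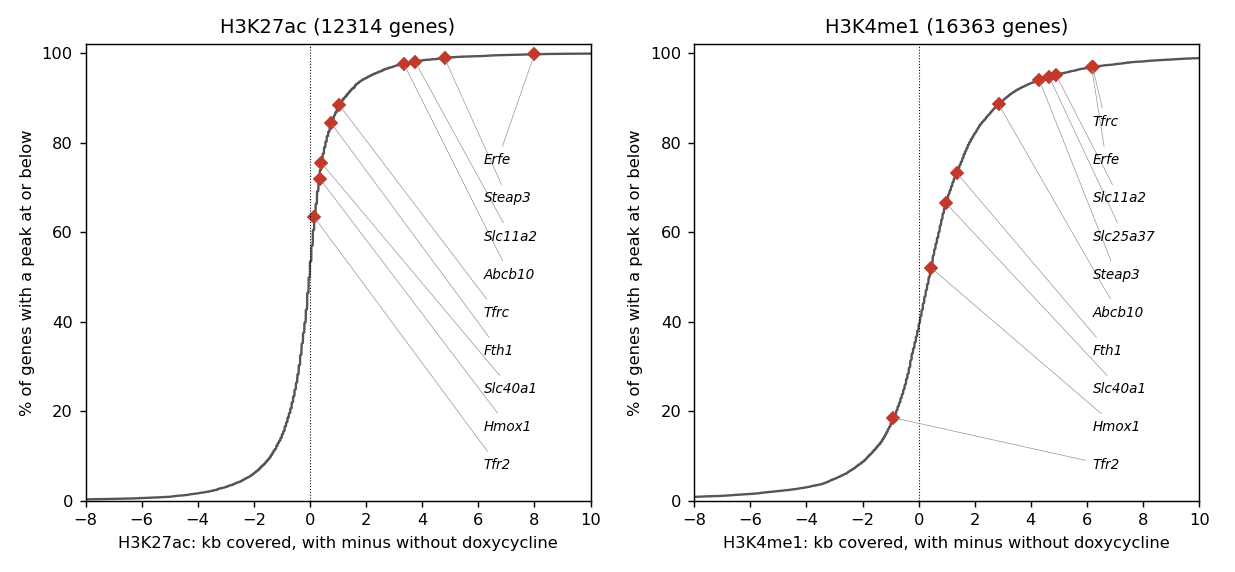
Cumulative share of genes (in percent) against the treated minus untreated covered length in kb, for genes with a peak of the mark in either list, with the iron handling genes as diamonds; the horizontal axis leaves out the most extreme genes. All 9 genes with H3K27ac lie to the right of 0, and in H3K4me1 Tfr2 alone lies to the left.

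Erfe (chr1:91366305-91374217) encodes erythroferrone, and most of its body passed from unacetylated to acetylated. Without doxycycline, 3 peaks of H3K27ac took up 2859 bp of its window (16.0% of 17913 bp). One of 1103 bp lay over the start (91365999 to 91367101), and 2 of 703 bp and 1053 bp lay at the far end. In the treated list the start peak ran on to 91370251 and was 4153 bp wide, a single peak of 6153 bp (91370649 to 91376801) took in both far peaks, and a further 553 bp peak lay beyond the gene. Together these covered 10859 bp (60.6% of the window), 3.80 times the untreated length. The difference of 8000 bp ranked 39th among the 12314 genes. H3K4me1 went from 3 peaks over 6359 bp to 12522 bp, with 1 treated peak of 11453 bp (91365449 to 91376901) over all 3 untreated ones, a ratio of 1.97. By the authors' score this peak stood at the 99.1 percentile of the treated list. The part of its width in this rank was not tested.

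The far end of Erfe overlaps Ilkap, a phosphatase gene, and its other flank holds part of Klhl30. With the bodies of both neighbours left out, H3K27ac in the Erfe window was 1806 bp untreated and 7350 bp treated, and H3K4me1 3903 bp and 8397 bp. Inside the gene body alone, H3K27ac covered 1869 bp and 7516 bp. The difference is therefore not limited to sequence that Erfe shares with its neighbours. Ilkap, whose window overlaps that of Erfe, lay at a distance of 2929 bp from it in the lengths around both ends over the 4 lists. Among genes whose windows do not overlap that of Erfe, the 5 nearest were Nprl3 (at a distance of 4102 bp), Ppbp, C2cd3, Pigq and Pf4 (4657 bp). The windows of Ppbp and Pf4 overlap each other, so these genes are not separate matches. Around the ends of Nprl3, the nearest of these, H3K27ac covered 4448 bp without and 8437 bp with doxycycline. The H3K4me1 lengths there were 9057 bp and 11446 bp.

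Of the genes of transferrin iron uptake, Tfrc, the transferrin receptor of dividing and erythroid cells (chr16:32608896-32632794), had 1 broad H3K27ac peak in each list. It was 6453 bp wide untreated and 7503 bp treated, and it began at 32607549 and 32607399, before the gene's start, and ended within the gene. The ratio was 1.16. Its H3K4me1 went from 21408 bp to 27608 bp (63.2% and 81.4% of the window), the widest peak, toward the far end, being 11853 bp and 13653 bp. Around the start itself H3K4me1 was interrupted in both lists: a peak ended at 32608751 in each and the next began at 32610049 untreated and 32610749 treated, while H3K27ac covered the gap. Within 5 kb of either end alone, H3K4me1 was not longer when treated, with 14955 bp and 14555 bp, so the added length lay deeper in the gene.

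Tfr2, a second transferrin receptor that binds the erythropoietin receptor in precursors (chr5:137569822-137588081), differed least in H3K27ac among the acetylated genes. It had 1 H3K27ac peak over its start in each list, of 2703 bp and 2853 bp. The treated peak began at 137569449, before the gene's start, and the untreated one at 137569849, just inside it. Its H3K4me1 was 8359 bp untreated and 7459 bp treated, the only shorter value of the 10. An internal peak of 2003 bp had a counterpart of 703 bp, a 503 bp peak beyond the gene had none, and another 503 bp peak, inside the gene, was in the treated list alone. Outside the neighbouring gene Actl6b, H3K27ac at Tfr2 was 2703 bp and 2719 bp.

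Steap3, the endosomal reductase that turns transferrin-delivered ferric iron into ferrous iron (chr1:120226414-120271081, minus strand), was acetylated over 9515 bp untreated and over 14312 bp treated. In the untreated list 4 peaks of 353 bp to 3803 bp stood side by side in the 5′ part of the gene. A single treated peak of 11153 bp (120256949 to 120268101) covered all 4, while a 153 bp untreated peak had no counterpart. At the outermost start no untreated peak was present, and the treated list had one of 2453 bp (120269549 to 120272001) that covered all 300 bases of the window around that start. H3K4me1 covered all 300 bases of that window in both lists, so within the window acetylation alone differed. The H3K4me1 peak that held it was itself wider when treated, with 6353 bp and 7503 bp. Acetylation of a start window in the treated list alone was seen at 2 of the 13 windows, both of Steap3, and at 1.35% of all start windows. In the untreated list alone it was seen at 1 window, of Fth1, and at 1.27% of all. Over the whole Steap3 window, H3K4me1 went from 28404 bp to 32704 bp.

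Slc11a2 (chr15:100387898-100424209), which encodes the divalent metal transporter DMT1 that moves ferrous iron out of the endosome, was acetylated over 7165 bp without doxycycline and over 10912 bp with it. Near its upper end, peaks of 5103 bp and 903 bp became 1 of 6853 bp. At the other end the treated list alone had a 2853 bp peak (100390199 to 100393051), inside an H3K4me1 peak of 4753 bp that was already in the untreated list. This was the widest treated H3K27ac peak of the 10 genes with no untreated counterpart. Not all change was in one direction: 2 narrow untreated peaks of 253 bp and 303 bp had no treated counterpart, and a 403 bp peak was in the treated list alone. H3K4me1 covered 25121 bp and 30018 bp, and 1 treated peak of 8203 bp took in 3 untreated ones.

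**Figure D3:**
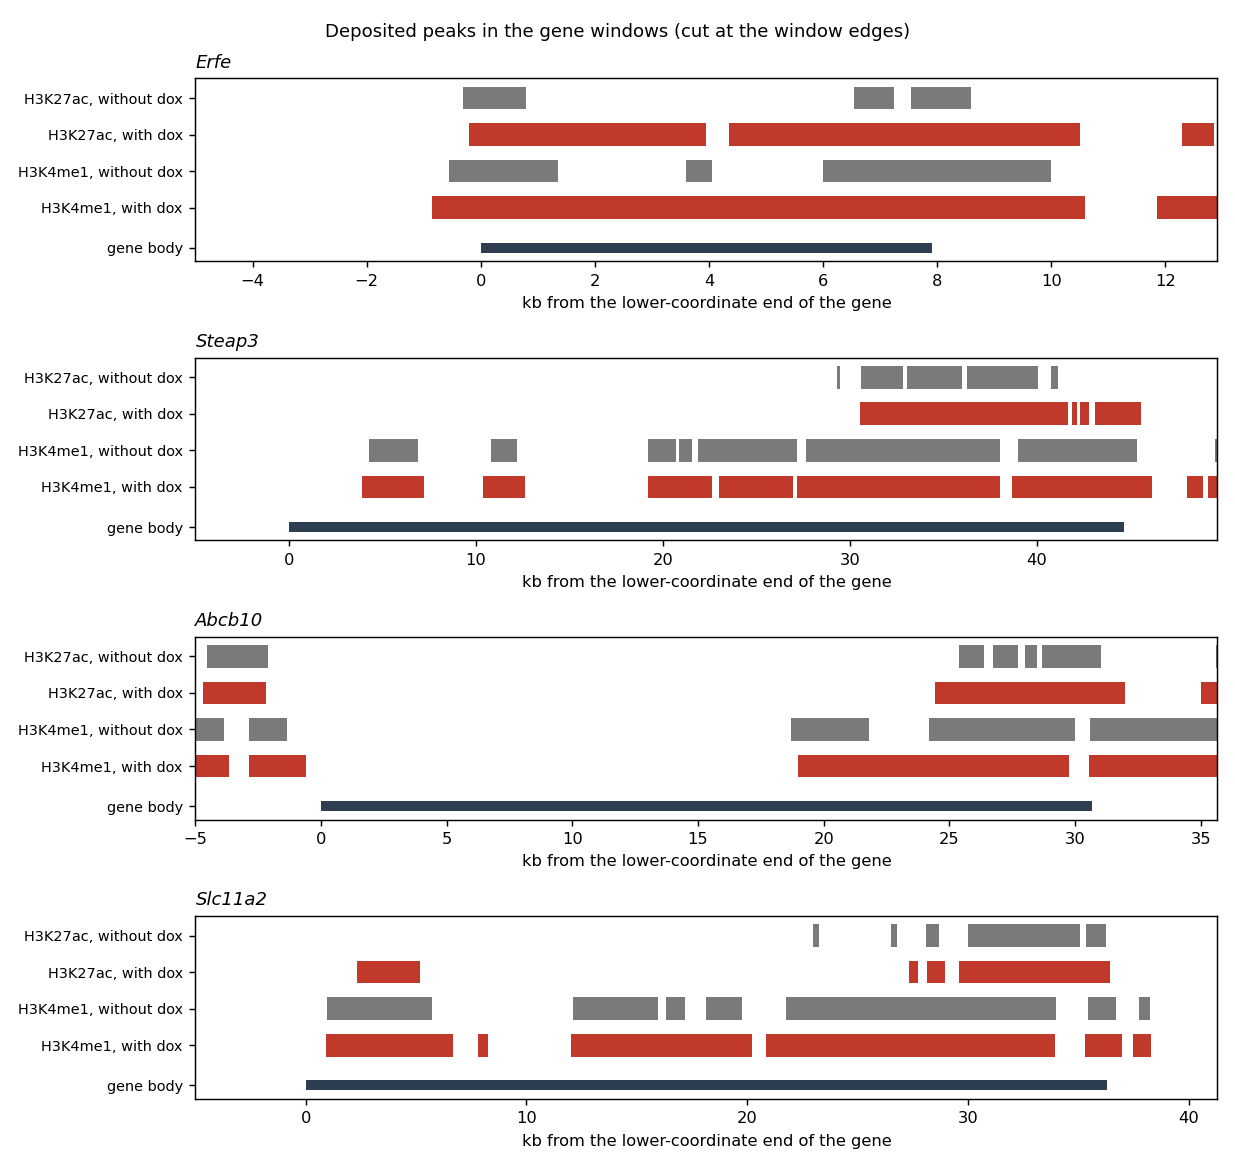
Deposited peaks at Erfe, Steap3, Abcb10 and Slc11a2, by distance in kb from the end of the gene with the lower coordinate (rows: mark and condition, grey without and red with doxycycline; dark bar, gene body). In each gene 1 treated H3K27ac peak lies over 2 or more untreated peaks, 4 of them at Abcb10 and at Steap3.

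On the mitochondrial side, Abcb10 (chr8:123952459-123983122, minus strand), an inner membrane transporter needed for haem production in erythroid cells, carried H3K27ac over 7389 bp in the untreated and 10730 bp in the treated list. From its start inward, 4 untreated peaks of 503 bp to 2353 bp became 1 treated peak of 7553 bp (123976899 to 123984451). A peak of 353 bp upstream of the gene became 1053 bp. A further peak overlapped the neighbour Nup133 and was 2453 bp and 2503 bp wide. Outside Nup133 the Abcb10 window held 6022 bp and 9213 bp of H3K27ac. H3K4me1 covered 16626 bp and 19473 bp.

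Slc25a37, mitoferrin-1, the importer of iron into erythroid mitochondria (chr14:69241848-69285544), had no H3K27ac peak in either list. Its H3K4me1 was 3962 bp untreated and 8615 bp treated, a ratio of 2.174, and all 4 untreated peaks had a wider treated counterpart. The largest was 3003 bp untreated and 4903 bp treated. All of these lay in the lower part of the window. From 69254352 to 69705648 none of the 4 lists had a peak, a stretch of 451 kb that holds 31193 bp of Slc25a37 and 7 other whole coding genes, among them Entpd4, Entpd4b and Loxl2. The median stretch without a peak in any list was 3197 bp, and 845 of 121554 were at least as long as this one. The cause of this gap was not tested, and the 0 at Slc25a37 therefore describes the lower part of the gene, where H3K4me1 peaks were called.

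The genes of storage, export and haem breakdown had H3K27ac differences of 753 bp (Fth1), 400 bp (Slc40a1) and 347 bp (Hmox1). Fth1, the ferritin heavy chain (chr19:9980600-9985111), carried 6771 bp of H3K27ac without and 7524 bp with doxycycline, 46.7% and 51.8% of its window. Its main peak over the gene was 3353 bp and 4053 bp. The peak before it was wider in the untreated list, with 2703 bp against 2253 bp, and ended at 9980701 and 9979951. The treated peak thus stopped short of the start at the gene's lower edge, whose upstream bases are printed above, while the inner start was acetylated in both lists. H3K4me1 was 11068 bp and 12418 bp. Part of this window lies in Best1; outside Best1, H3K27ac was 6058 bp and 6408 bp. The H3K27ac difference at Fth1 was 53 bp with 1 kb flanks, 94 bp with 20 kb flanks and 1550 bp with peaks within 1 kb merged, so its size rests on the window.

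Slc40a1, ferroportin, the exporter of cellular iron (chr1:45908070-45926532), had 1 H3K27ac peak at its upper end in each list. Both began at 45924949, and they were 2653 bp and 3053 bp wide. The added 400 bp lay beyond 1 kb from the gene, since with 1 kb flanks the difference was 0. Its H3K4me1 was 8768 bp and 9747 bp, with 2 peaks found in each list alone. Hmox1, heme oxygenase 1 (chr8:75093618-75100593), had the shortest H3K27ac of the acetylated genes, 1206 bp untreated and 1553 bp treated. The peak at its lower end was 1003 bp and 1553 bp, both ending at 75094101, and a 203 bp peak in its flank was present in the untreated list alone. H3K4me1 at Hmox1 was 6540 bp and 6987 bp.

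The H3K4me1 differences of several genes depended on the setting. With treated lengths scaled to the untreated total, the difference was 3140 bp at Slc11a2, 2386 bp at Steap3, 1707 bp at Abcb10, 623 bp at Fth1, 408 bp at Slc40a1 and 38 bp at Hmox1. Within 5 kb either side of each end alone, it was 2453 bp at Steap3, 1903 bp at Slc25a37 and 750 bp at both Slc11a2 and Abcb10. Erfe is so short that these end windows and its full window are the same. With 20 kb flanks the differences were larger, at 12803 bp for Erfe, 8438 bp for Slc11a2, 6294 bp for Abcb10 and 3938 bp for Hmox1.

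Most peaks at these genes had a counterpart, that is, an overlap of 1 bp or more with the other list of their mark. Among untreated H3K27ac peaks 24 of 28 had one (85.7%, exact 95% interval 67.3 to 96.0%), beside 72.6% over the whole list. Among treated ones it was 16 of 23 (69.6%, 47.1 to 86.8%), beside 82.9%. In H3K4me1 the shares were 43 of 47 untreated (91.5%, 79.6 to 97.6%), beside 73.3%, and 38 of 44 treated (86.4%, 72.6 to 94.8%), beside 79.2%. The intervals cover counting error only, peaks of 1 gene are not independent, and the whole-list share lay inside the interval except for untreated H3K4me1 peaks. Peaks at these genes were wider than the lists' own, with a median of 2053 bp against 903 bp in untreated H3K4me1, and the part of width in these shares was not tested. Treated H3K27ac peaks at these genes had a median width of 2453 bp and untreated ones 1028 bp, against 1353 bp and 1003 bp in the whole lists.

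Treated and untreated peaks were compared in 2 ways. In the first, a treated peak overlapped at least 2 untreated ones by 1 bp or more. This held for 4 of 23 treated H3K27ac peaks, 1 each at Erfe, Steap3, Abcb10 and Slc11a2 (10.8% in the whole list). It also held for 5 of 44 treated H3K4me1 peaks, at the same 4 genes, close to the 9.88% of the whole list. Those at Steap3 include shifted edges. A treated peak of 3453 bp was narrower than 1 untreated peak it touched, of 5303 bp. Another began at 120253599, just before that untreated peak ended at 120253601. The reverse, an untreated peak that overlapped at least 2 treated ones, was seen at no H3K27ac peak (3.99% in the whole list) and at 1 H3K4me1 peak, of 5303 bp in Steap3 (3.84%). In the second, single peaks that matched 1 to 1 were wider when treated. Among 12 such H3K27ac pairs the treated peak was wider in 11 (50.3% over all pairs), with a median gain of 475 bp (50 bp over all), the exception being the peak before Fth1. Among 31 such H3K4me1 pairs it was wider in 28 (59.4%), with a median gain of 700 bp (100 bp). The part of the untreated width in these gains was not tested.

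Much of the added acetylation lay in sequence that already carried H3K4me1. Summed over the 10 genes the share was smaller than over the whole lists, with Erfe holding 8100 of the 24747 added bp. Erfe and Hmox1 had smaller shares than the whole lists, and every other gene with added acetylation had a larger one. Over the 10 windows, 44552 bp of H3K27ac were common to both lists, 24747 bp were in the treated list alone and 2162 bp in the untreated list alone. Of the treated-only bp, 76.6% lay inside an untreated H3K4me1 peak, beside 91.8% over the whole lists. At Tfrc, Tfr2, Fth1, Slc40a1 and Abcb10 all treated-only bp did, at Steap3 94.9% and at Slc11a2 94.3%. At Erfe it was 38.9% (3150 of 8100 bp), and at Hmox1 36.4% (200 of 550 bp). All 8100 bp at Erfe lay inside the treated H3K4me1 peaks.

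**Figure D4:**
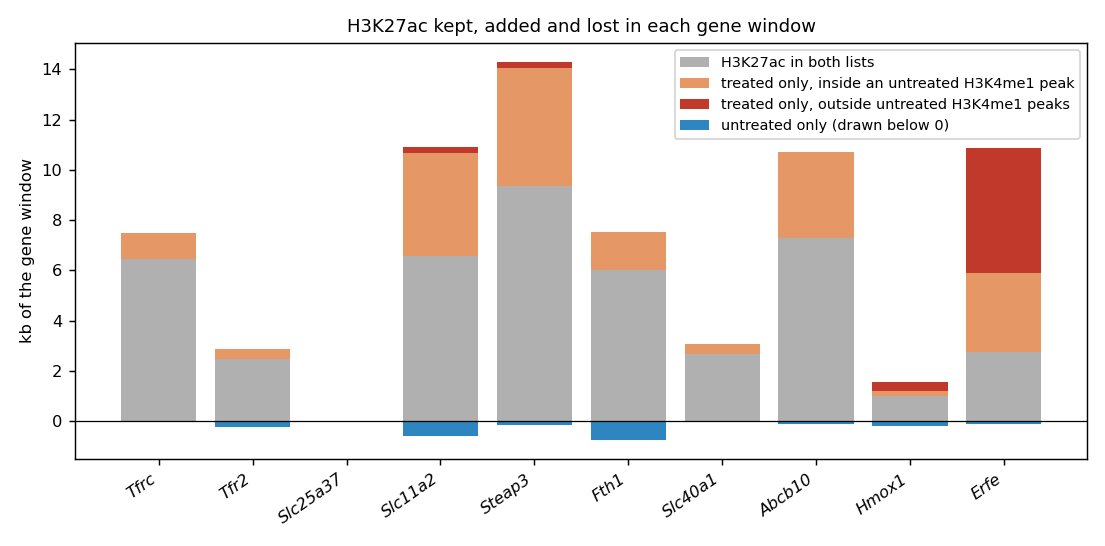
H3K27ac in each gene window in kb: in both lists (grey), in the treated list alone inside untreated H3K4me1 peaks (orange) or outside them (red), and in the untreated list alone (blue, below 0). Erfe holds most of the red, with 3150 of its 8100 treated-only bp inside untreated H3K4me1 peaks.

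The other iron genes examined, 48 genes for ferritin light chain, iron regulatory proteins, iron-sulphur cluster assembly, hepcidin control and haem transport, were more evenly divided. Of the 36 with an H3K27ac peak in either list, 22 were longer and 14 shorter, where 46.7% of all genes with the mark were longer and 50.5% shorter. The remaining 12 had no H3K27ac peak in either list. Of the 36 with a peak, 4 were called longer (10.1% of all genes with the mark) and 1 was called shorter (11.0%). The median difference of the 36 was 123.5 bp, beside -7 bp over all genes with the mark. Of the 44 with an H3K4me1 peak in either list, 26 were longer and 18 shorter, where 60.7% of all genes with this mark were longer and 38.7% shorter. The remaining 4 had no H3K4me1 peak in either list. Of the 44 with a peak, 3 were called longer (10.5% of all genes with the mark) and 1 was called shorter (6.78%). In both marks the genes called longer were thus close to the share over all genes with the mark or below it. Snx3, which returns the transferrin receptor to the cell surface, had 11574 bp and 20374 bp of H3K27ac. Abcg2, a porphyrin exporter, had 1053 bp and 4262 bp, and Tmprss6, a protease that lowers hepcidin, 1656 bp and 4415 bp. In H3K4me1, Slc39a8 had 11371 bp and 18427 bp, Tmprss6 9112 bp and 15262 bp, and Trf, transferrin, 1006 bp and 2956 bp. The genes called shorter were Cd163, the haemoglobin scavenger receptor of macrophages, with 1553 bp and 1003 bp of H3K27ac, and Flvcr2, with 2450 bp and 688 bp of H3K4me1.

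The haem synthesis enzymes, which use the imported iron, were longer in H3K27ac at 9 of 9 genes (46.7% of all genes with the mark). In H3K4me1 they were longer at 8 of 9 (60.7%), with Alas1 the shorter one. Their median differences were 1291 bp and 2697 bp, beside 901.5 bp and 3574 bp at the 10 iron handling genes. Acetylation at Uros covered 3659 bp without and 10159 bp with doxycycline. At Alas2, the erythroid form of the first enzyme, it covered 1406 bp and 7215 bp, and at Urod 2006 bp and 3206 bp. The H3K4me1 lengths were 17651 bp and 27339 bp at Alas2, and 10274 bp and 18315 bp at Uros. No test of a difference between these lists was made.

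**Figure D5:**
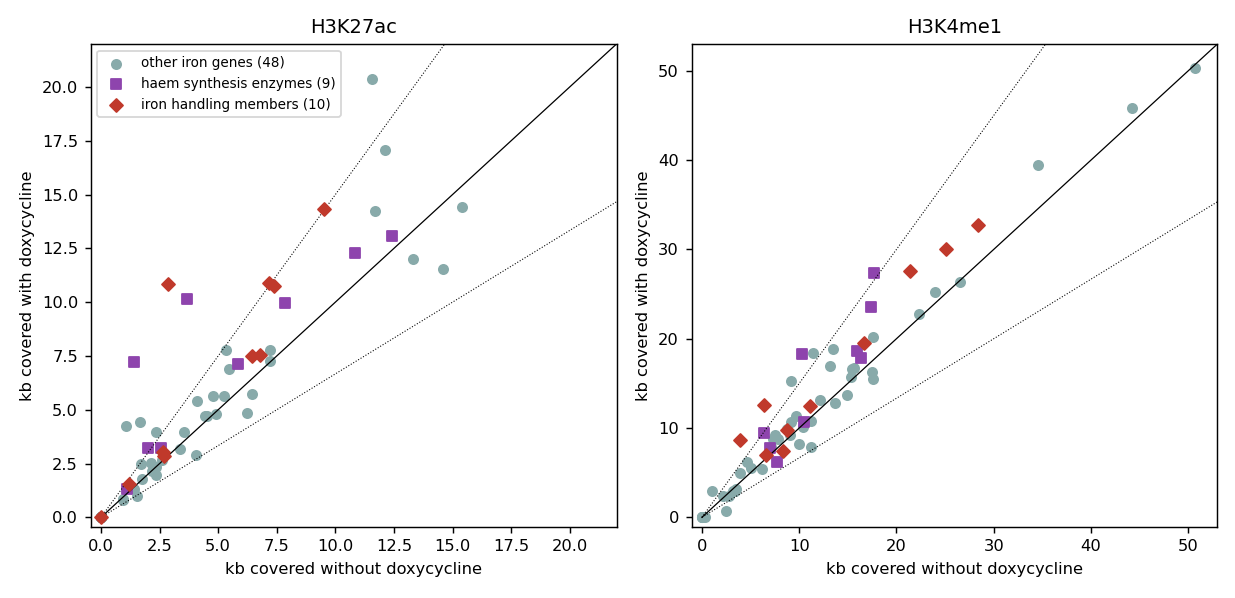
Covered length in kb with doxycycline (vertical) against without (horizontal) for the iron handling genes (red diamonds), 48 other iron genes (circles) and 9 haem synthesis enzymes (squares); the solid line marks equal lengths and the dotted lines a ratio of 1.5. Iron handling and haem genes lie on or above the solid line in H3K27ac, and the other iron genes on both sides of it.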

How the data were processed

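ChIP-seq peak lists were used for 4 groups, H3K27ac and H3K4me1 without and with doxycycline; the other samples were not analysed here. Groups follow the sample labels. Per the submitters' processing notes, bcl2fastq 2.17.1.14, BWA and mm10 were used. How peaks were called, and how H3K27ac replicates were joined, is not given in the sources used here. In the deposited files, H3K27ac peaks have a position and a width, and H3K4me1 peaks also a score by the authors, of unstated scale, from which ranks within 1 list were taken.

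Positions count from 1 and include both ends. The bp covered in the body and 5 kb beyond either end were summed for all 21887 protein-coding genes (RefSeq). A longer length can come from deeper reads or from the calling of peaks. Intervals on shares are exact (Clopper-Pearson, 95%). Python 3.11.15, numpy 2.4.6, pandas 2.3.3, scipy 1.17.1 and matplotlib 3.10.9 were used; overlap counts were checked against bedtools 2.31.1, and gene lengths were tested on simulated data. The genes and lists were chosen with earlier results of these data known. All 10 genes are named, with coding genes that reach into their windows. Of the other iron genes and haem enzymes, up to 3 per mark and direction with the largest called difference are named, and for Erfe the 5 genes at the smallest Euclidean distance in bp over the 4 lists, within 5 kb of either end, leaving out genes whose windows overlap that of Erfe. Marker genes, and Alas1 and peak-free stretch genes, are named outside this rule, the latter after their values were seen. Alternatives were other windows, peak filters, merging, scaling and stricter overlap.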

Additional observations from a re-analysis of the deposited data

How the results depend on the processing

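The number of genes with longer H3K27ac was 8 or 9 of 10 under all 9 alternatives that kept the 10 genes, and 9 of 9 without Slc25a37; for H3K4me1 it was 8 or 9 of 10, and 8 of 9. Leaving out the bodies of neighbouring genes and leaving out Slc25a37 were chosen after seeing the data. The median H3K27ac difference was 576.5 bp with 5 kb either side of each end, 690.5 bp with gene bodies and 1 kb, 970.5 bp with 20 kb, 850 bp with peaks of at least 200 bp, 1302 bp with the wider 50% of each list, 1300 bp with peaks within 1 kb merged, 954 bp with lengths scaled to the same total, 725 bp without neighbouring bodies and 1050 bp without Slc25a37. For H3K4me1, in the same order, without the filter at 200 bp and with the upper 50% taken by the authors' score, it was 1050, 2409, 4778, 3299, 3374, 2046, 3474 and 2847 bp. Of 180 differences of single genes, 2 turned: Tfr2 in H3K27ac to -50 bp with 20 kb, and Tfrc in H3K4me1 to -400 bp with windows at the ends alone. Some of the 180 could not turn, as H3K27ac at Slc25a37 was 0 in every setting and scaling raised treated H3K27ac lengths. The filter at 200 bp removed no H3K4me1 peak. A fall to 0, as at Slc40a1 in H3K27ac with 1 kb flanks, was not counted as turned. The shared part of untreated H3K27ac peaks was 100% with the wider 50% of each list and with equal peak numbers, which for H3K27ac drop the narrowest peaks, as the unshared ones are (153 to 303 bp), and 39.3% under a reciprocal overlap of 50%. That of untreated H3K4me1 peaks was 100% with 1 kb flanks and 59.6% under the reciprocal rule, and that of treated H3K4me1 peaks 63.6% under it. No paired analysis was possible because each mark and condition has 1 list, and for the same reason no replicate could be left out. Read depth is unknown, so a difference in depth between 2 lists was not tested.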
